A study of Mus musculus with 6 samples.

Results

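The genes described here copy the genome during S phase or control entry into it. They are 34 genes listed by symbol, from origin licensing through firing, polymerases and nucleotide supply to the E2F and cyclin E regulators, and all 34 were found among the 55416 rows of a count table and passed the filter on low counts. The table comes from primary mouse keratinocytes of newborn epidermis, 1 to 2 days old and of a C57BL/6J and 129 hybrid background, in 3 Cebpb knockout (KO) libraries (replicates 4, 5 and 6) and 3 wild type (WT) libraries (replicates 1, 2 and 3). Both groups were grown in low calcium medium with EGF, irradiated with 10 mJ/cm2 of UVB and harvested 8 h later, so every difference below is between genotypes after UVB and none is a response to UVB. Whether libraries of a genotype came from separate pups or dishes, or from pooled litters, is not stated in the labels, so the p-values cover only the variation among these libraries, which may be technical.

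Chromosomes are copied from origins that are prepared in G1. The origin recognition complex, CDC6 and CDT1 load the ring of MCM2 to MCM7 onto DNA, which is called licensing, and geminin blocks CDT1 so that loading does not recur. At S phase CDC45 and the GINS complex join the ring and turn it into an active helicase, which is called firing, and polymerase alpha with its primase then starts each new strand. Transcription of most of these genes is driven by E2F factors, which cyclin E and its kinase release from the retinoblastoma protein. In epidermis the basal layer holds the cells that replicate their DNA.

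To show the elements that such genes carry, promoter windows from RefSeq (build GRCm38.p6, 250 bases before to 50 bases after the start, an older build than the one used for the counts) were searched for 8-letter E2F sites, TTTCGCGC, TTTGGCGC, TTTCCCGC or TTTGCCGC on either strand. Windows were at hand for 28 of the 34 genes, and 1 window a gene was counted. An E2F match lay in 11 of these 28 windows (39.3%), against 456 of 11421 windows of the genes tested (3.99%). Among the 22 windows of genes that were higher in KO cells by the test below, 8 held a match, and among the 6 others 3 did. The CCAAT box was found in 18 of 28 windows (64.3%, against 38.3%), and the CHR element (TTTGAA or TTCGAA) in 5 (17.9%, against 13.9%). The palindromic C/EBP letters TTGCGCAA were in 0 of 28 windows, and in 0.289% of all. A match is a run of letters and not a measured binding site.

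The 150 bases before the start are printed for 6 of the genes with an E2F match there, 5 of them higher in KO cells and Orc1 not called, so that the same letters can be seen in genes that passed the test and in one that missed it. Capitals mark the E2F match, and each strand reads toward the gene. Mcm6 lies at chr1:128359706-128359855 on the minus strand, Cdc6 at chr11:98908001-98908150 (plus), Gins3 at chr8:95633409-95633558 (plus), Pola1 at chrX:93632156-93632305 (minus), Dtl at chr1:191575545-191575694 (minus) and Orc1 at chr4:108579304-108579453 (plus).
Mcm6: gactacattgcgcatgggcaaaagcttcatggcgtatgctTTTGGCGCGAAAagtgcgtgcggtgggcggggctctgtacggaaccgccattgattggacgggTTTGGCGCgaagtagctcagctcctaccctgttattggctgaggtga
Cdc6: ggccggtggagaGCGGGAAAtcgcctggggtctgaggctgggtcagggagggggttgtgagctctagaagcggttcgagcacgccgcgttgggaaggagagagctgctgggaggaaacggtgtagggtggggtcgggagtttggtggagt
Gins3: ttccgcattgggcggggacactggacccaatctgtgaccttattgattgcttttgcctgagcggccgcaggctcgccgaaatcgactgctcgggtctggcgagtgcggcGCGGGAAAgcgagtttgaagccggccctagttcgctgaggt
Pola1: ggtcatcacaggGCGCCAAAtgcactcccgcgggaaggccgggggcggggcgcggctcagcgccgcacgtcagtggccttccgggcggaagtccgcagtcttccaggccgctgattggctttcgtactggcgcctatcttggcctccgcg
Dtl: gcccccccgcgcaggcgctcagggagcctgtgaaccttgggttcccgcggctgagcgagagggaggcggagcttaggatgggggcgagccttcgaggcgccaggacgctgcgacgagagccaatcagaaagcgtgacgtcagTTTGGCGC
Orc1: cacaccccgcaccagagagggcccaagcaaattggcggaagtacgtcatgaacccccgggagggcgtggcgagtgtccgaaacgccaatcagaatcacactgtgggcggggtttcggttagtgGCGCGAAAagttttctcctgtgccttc
The Mcm6 stretch holds 3 matches, of which those whose first bases lie 110 and 106 bases before the start overlap on opposite strands, and the other begins 47 bases before it. In Cdc6 and Pola1 the match begins 138 bases before the start, in Gins3 41, in Orc1 27 and in Dtl 8.

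Most of the 34 genes were higher in KO cells. By edgeR's quasi-likelihood test, adjusted over all 17659 genes tested with a threshold of 0.05, 25 were called higher, 1 was called lower and 8 were not called. Over all genes tested 24.8% were called higher and 23.7% lower. The 34 genes were chosen with earlier results of these data known, so these shares describe the list and do not test it. The median log2 fold change (KO over WT) was 0.49, a 1.40-fold level, beside 0.01 over all genes. Every KO library lay above every WT library in 25 of the 34 genes, against 28.7% of all genes, and below in 3, against 27.6%. The gains were modest in size: 16 genes passed 0.5 log2 units and 1, Timeless, passed 1. In these whole-culture libraries, more cells in S phase and more of these transcripts per cell cannot be told apart.

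**Figure D1:**
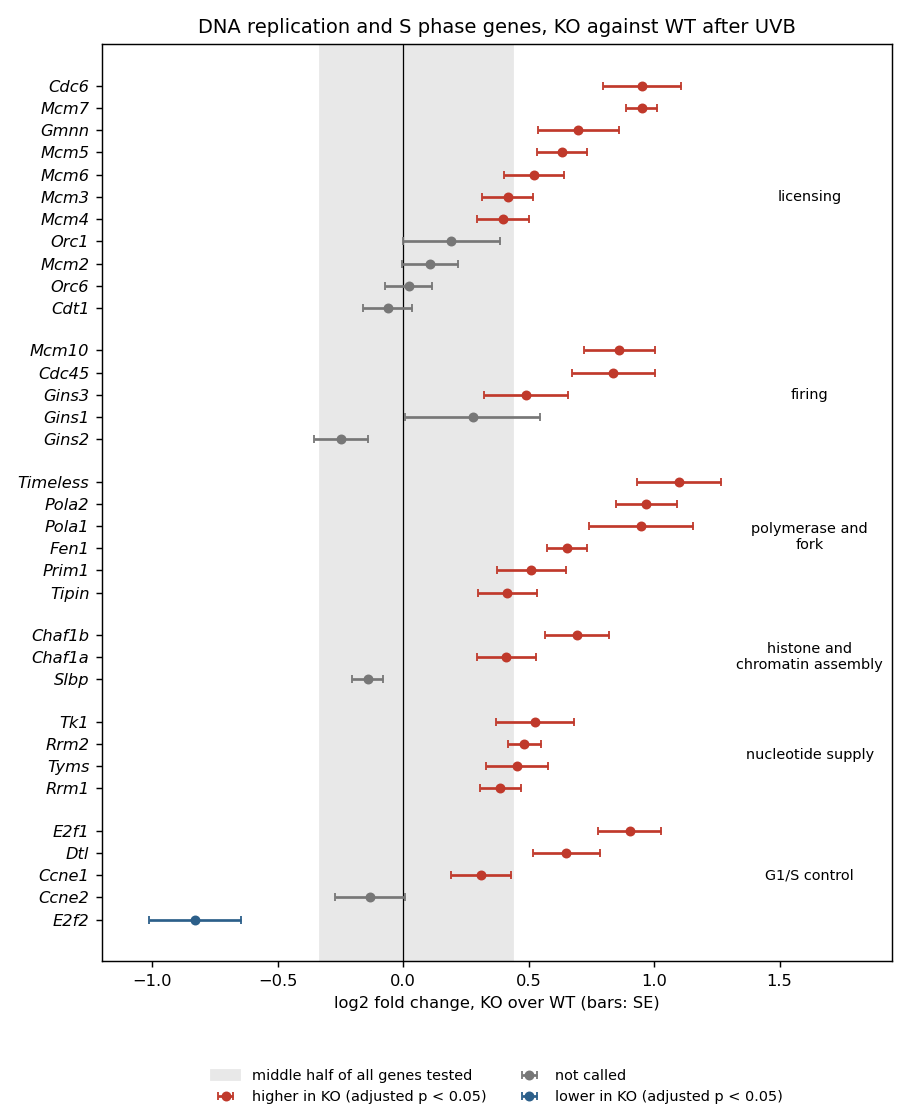
Log2 fold change (KO over WT, x axis) with its standard error for each of the 34 genes, grouped by role; colours mark the edgeR calls and the grey band spans the quartiles of all genes tested, from -0.33 to 0.44. Timeless stands highest at 1.10 and E2f2 lowest at -0.83, and all polymerase, fork and nucleotide supply genes lie right of 0.

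The libraries themselves set the frame for these values. Totals were 87360490, 92987497 and 81256192 counts in KO libraries and 120262861, 122797031 and 107757415 counts in WT libraries, and counts of a listed gene ran from 61 to 11906 per library. Cebpb had a level of 0.942 ± 0.143 CPM (counts per 1e6, with totals scaled by edgeR's TMM method) in KO and 145 ± 21.9 CPM in WT cells (SD, n = 3 each), which checks the genotype labels. The basal keratins marked both groups as keratinocytes, with Krt5 at 11537 and 19824 CPM in KO and WT cells and Krt14 at 7872 and 14956 CPM. Of 11 keratinocyte markers 2 were higher and 8 lower in KO cells, with sums of 26170 to 26900 CPM in KO and 40650 to 45550 CPM in WT libraries. Most of these sums was Krt5 and Krt14. The 2 higher markers were Epcam (1718 CPM in KO and 398 CPM in WT cells) and Itgb4 (547 and 382 CPM). The 8 lower ones included Trp63 (14.2 and 54.9 CPM). Melanocyte markers were present in both (6 of 8 lower in KO, sums of 609 to 691 CPM in KO and 700.5 to 786 CPM in WT). Of 11 fibroblast markers 7 passed the filter on low counts and were tested, with 0 higher and 3 lower. The 11 summed to 8.52 to 9.74 CPM in KO and 15.6 to 20.0 CPM in WT libraries, with Lum at 0 in all. Of 11 immune markers 4 were tested, with 1 higher and 3 lower. The 11 summed to 28.5 to 32.0 CPM in KO and 49.2 to 59.6 CPM in WT libraries, with Cd3e and Fcer1a at 0. Of 5 endothelial markers 3 were tested, with 0 higher and 1 lower. The 5 summed to 5.19 to 6.10 CPM in KO and 7.15 to 7.96 CPM in WT libraries, with Cdh5 at 0. Over all genes tested 24.8% were higher and 23.7% lower. Most of the immune sum was Cd68 (27.2 CPM in KO and 49.1 CPM in WT cells), while Ptprc had 0 and 0.0197 CPM. Most of the endothelial sum was Kdr (4.77 CPM in KO and 6.36 CPM in WT cells). Y-linked transcripts summed to 0.101 to 0.158 CPM in KO and 60.7 to 68.1 CPM in WT libraries. Xist, the RNA of the inactive X in female cells, stood at 567 to 604 CPM in KO and 387 to 415 CPM in WT libraries, so the WT libraries held both kinds of transcript. In KO and WT libraries, mitochondrial genes took 1.79% to 2.17% and 1.47% to 1.64% of counts. The part of these differences in the results on replication genes was not tested. With library totals in place of TMM, the median of all genes moves up by 0.20, and 6478 genes are called higher and 2452 lower (72.5% of the calls higher), against 4387 and 4192 with TMM (51.1%). The median of the 34 genes stood 0.47 above that of all genes under either scaling. A change of scaling moves all genes by nearly the same amount, so this difference could hardly change and is no test of the scaling.

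Calls were mixed among the licensing genes: 7 of the 11 passed the test as higher in KO cells, 0 as lower, and the other 4 missed it. Their median was 0.42 log2 units. Mcm7 (ENSMUSG00000029730), a subunit of the helicase ring, stood at 113, 120.1 and 110.2 CPM in KO libraries and 57.3, 59.9 and 60.3 CPM in WT libraries. The groups lay far apart, and the log2 fold change was 0.95 ± 0.06 (SE, edgeR adjusted p = 2.81e-09). Exons of Mcm7 share 7.25% of their length with Ap4m1 on the other strand, in the GENCODE M21 annotation.

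The other ring subunits had smaller fold changes than Mcm7, a contrast between genes that was not tested. Mcm5 rose by 0.63 ± 0.10 log2 units (SE), to 26.7 ± 1.47 CPM in KO cells, against 17.2 ± 2.25 CPM in WT cells (SD, n = 3 each). Mcm6 rose by 0.52, Mcm3 by 0.42 and Mcm4 by 0.40, and in each of them all KO libraries lay above all WT libraries. Mcm2 had 34.7, 34.4 and 29.8 CPM in KO libraries and 27.7, 37.2 and 26.9 CPM in WT libraries. Its groups overlapped, since WT replicate 2 was the highest of all, and it was not called (0.11 ± 0.11, SE, edgeR adjusted p = 0.459). Without WT replicate 2 Mcm2 was called (0.27, edgeR adjusted p = 0.0229), as it was with library totals (0.30, edgeR adjusted p = 0.043). The proteins form a ring with 1 copy of each subunit, and CPM per kilobase of exon differed among their genes in both genotypes. These lengths merge the exons of all annotated transcripts of a gene and can exceed the length of the mRNA made. The order of the subunits rests on these lengths, and the SD does not cover errors in them. Per kilobase of exon (M21), Mcm7 had 25.8 ± 1.16 CPM in KO and 13.4 ± 0.366 CPM in WT cells, and Mcm4 had 11.9 ± 1.04 and 9.02 ± 1.47 CPM (SD, n = 3 each). Mcm3 followed with 7.44 ± 0.617 CPM per kilobase in KO and 5.57 ± 0.740 in WT cells. In KO cells Mcm5 came next with 6.69 ± 0.368, then Mcm2 with 4.74 ± 0.389 and Mcm6 with 4.66 ± 0.407 CPM per kilobase. Mcm2 and Mcm6 lay within their spread of each other, while Mcm3 stood above Mcm5 by more than the SD of either. In WT cells Mcm2 had 4.40 ± 0.829, Mcm5 4.31 ± 0.564 and Mcm6 3.25 ± 0.562 CPM per kilobase. There Mcm2 and Mcm5 lay within their spread of each other. Mcm3 stood above Mcm2, and Mcm6 below Mcm5, by more than the SD of either gene of the pair.

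Among the loading factors, some were called and some were not. Cdc6 (ENSMUSG00000017499), the ATPase that recruits the MCM ring, had 9.59, 8.44 and 10.6 CPM in KO libraries and 3.69, 5.81 and 5.31 CPM in WT libraries. Its lowest KO library lay well above its highest WT library, with a log2 fold change of 0.95 ± 0.16 (SE, edgeR adjusted p = 9.78e-05). Cdt1, which works beside it, had 17.3, 18.1 and 17.8 CPM in KO libraries and 17.8, 20.8 and 16.9 CPM in WT libraries, and these ranges overlapped (-0.06 ± 0.10, SE, edgeR adjusted p = 0.637). Gmnn, which encodes geminin, the inhibitor of CDT1, rose by 0.70 ± 0.16 (SE), to 5.49 ± 0.432 CPM in KO, against 3.38 ± 0.736 CPM in WT cells (SD, n = 3 each). Calls also varied among subunits of the origin recognition complex. Orc1 (0.19 ± 0.19) and Orc6 (0.02 ± 0.09) were not called. Of the subunits outside the list of 34, Orc2 rose by 0.58 and Orc5 by 0.67, while Orc3 (-0.04) and Orc4 (0.09) were not called. Orc4 was called higher with library totals (0.29, edgeR adjusted p = 0.00389).

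**Figure D2:**
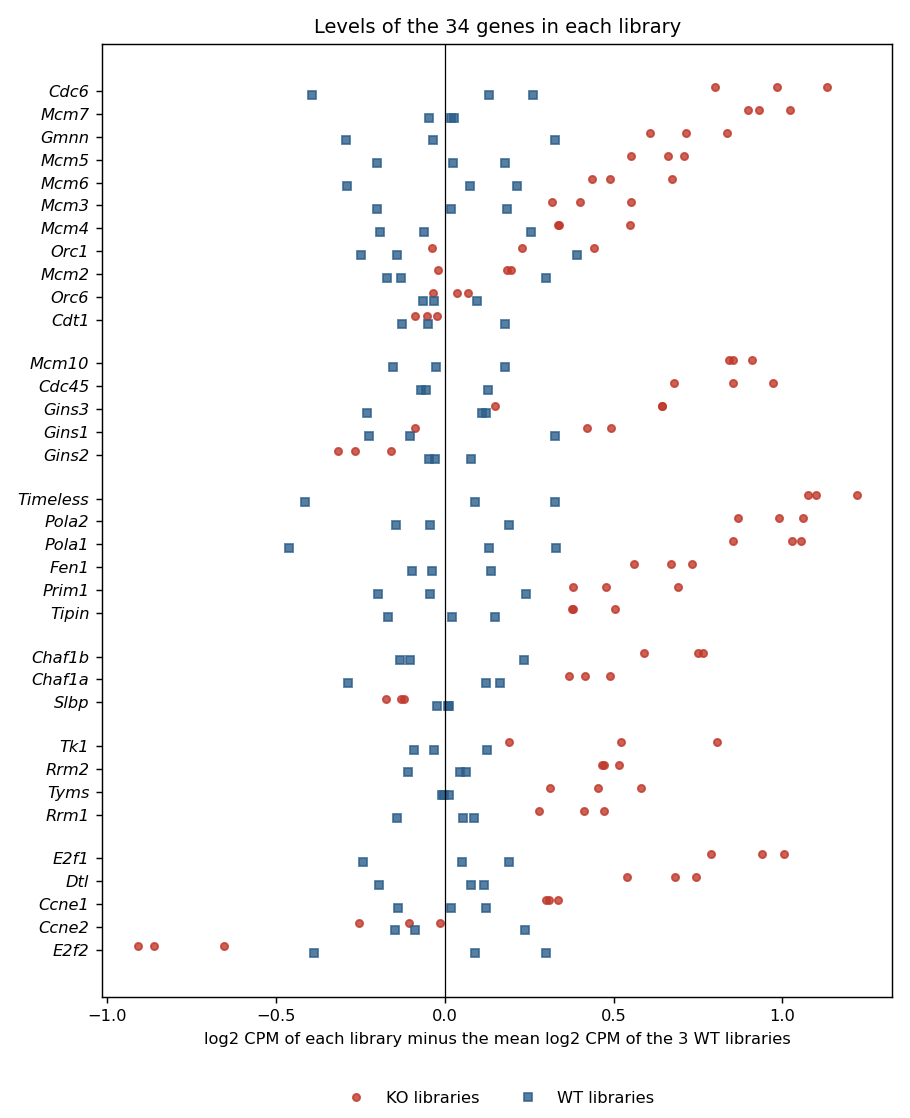
Level of each of the 34 genes in each library, as log2 CPM minus the mean log2 CPM of the 3 WT libraries (x axis), with KO libraries as red circles and WT libraries as blue squares. Circles and squares separate in 28 genes, with KO above in 25 and below in Gins2, Slbp and E2f2. Of all genes tested, 28.7% separate with KO above and 27.6% with KO below.

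Of the 5 firing genes 3 were higher and 2 not called (median 0.49). Mcm10, which helps to open the helicase, rose by 0.86 ± 0.14 log2 units (SE), to 5.46 ± 0.138 CPM in KO, against 3.00 ± 0.350 CPM in WT cells (SD, n = 3 each). Cdc45, the helicase cofactor, had 3.51, 2.87 and 3.23 CPM in KO libraries and 1.70, 1.72 and 1.96 CPM in WT libraries. No KO library reached down to the WT range, and Cdc45 rose by 0.84 ± 0.17 (SE, edgeR adjusted p = 5.36e-04). The 4 GINS subunits, which act as 1 complex, received different calls. Gins3 rose by 0.49 ± 0.17 (SE, edgeR adjusted p = 0.0243), a call lost without KO replicate 4 (0.41, edgeR adjusted p = 0.0939), KO replicate 5 (0.41, edgeR adjusted p = 0.107) or WT replicate 1 (0.38, edgeR adjusted p = 0.0893). Gins1, the scarcest gene of the list at 0.927 CPM in KO and 0.765 CPM in WT cells, was not called (0.28 ± 0.27, SE). Gins2 had 8.10, 8.38 and 9.03 CPM in KO libraries and 9.76, 9.89 and 10.6 CPM in WT libraries. All KO libraries lay below all WT libraries, yet edgeR did not call it (-0.25 ± 0.11, SE, adjusted p = 0.0688), whereas DESeq2 did (-0.26, adjusted p = 0.0307). In M21, 67.3% of the exon length of Gins2 lies under exons of Gse1 on the other strand, and reads of that stretch cannot be assigned without a strand setting. Gins4, outside the list, rose by 0.28 (edgeR adjusted p = 0.0118), which was lost without KO replicate 4 (0.24, edgeR adjusted p = 0.0642).

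Of 10 further genes of origin firing, 6 were higher (60%), 0 lower and 4 not called (median 0.35). Over all genes tested 24.8% were higher and 23.7% lower. Ticrr, which brings CDC45 to origins, rose by 0.78 ± 0.17, its partner gene Topbp1 by 0.54 ± 0.09, and Dbf4, the activator of the CDC7 kinase, by 0.45 ± 0.10 log2 units (SE).

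Polymerase and fork genes were the role with the highest median among the 34 (0.80), and all 6 were higher. Timeless (ENSMUSG00000039994), which holds the fork together and signals to the checkpoint, had 7.07, 6.51 and 6.40 CPM in KO libraries and 2.28, 3.80 and 3.23 CPM in WT libraries. Its lowest KO value was above its highest WT value, and it rose by 1.10 ± 0.17 (SE, edgeR adjusted p = 4.46e-05). Its partner gene Tipin rose by 0.42 ± 0.12 (SE), to 9.57 ± 0.491 CPM in KO, against 7.18 ± 0.786 CPM in WT cells (SD, n = 3 each). Pola1 encodes the catalytic subunit of polymerase alpha and had 2.81, 2.44 and 2.76 CPM in KO libraries and 1.48, 0.981 and 1.69 CPM in WT libraries (log2 fold change 0.95 ± 0.21, SE, edgeR adjusted p = 0.00123). Pola1 is the only X-linked gene of the 34, and the groups differed in Y-linked transcripts and in Xist, with both present in WT libraries. Over the 568 X-linked genes tested, 22.9% were higher and 20.4% lower, with a median of 0.02, and whether the mix of sexes enters the Pola1 difference was not tested. Pola2, the accessory subunit, rose by 0.97 ± 0.12 (SE), to 11.2 ± 0.750 CPM in KO, against 5.71 ± 0.693 CPM in WT cells (SD, n = 3 each). The small primase subunit gene Prim1 rose by 0.51 ± 0.14, and Prim2, the large one, at 0.763 and 0.494 CPM in KO and WT cells, was not called (0.63 ± 0.30, SE) except with library totals (edgeR adjusted p = 0.029). Fen1, the flap nuclease of Okazaki fragments, had 47.6, 45.6 and 42.3 CPM in KO libraries and 26.8, 31.5 and 27.9 CPM in WT libraries, and rose by 0.65 ± 0.08 (SE). Exons of the antisense gene Gm10143 cover 78.8% of Fen1 in M21, and without a strand setting their reads cannot be told apart.

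The wider set of polymerase, clamp and fork genes was less uniform: 13 of 31 were higher (41.9%), 4 were lower (12.9%) and 14 missed the threshold (median 0.36). Over all genes tested these shares were 24.8% and 23.7%. Pole, the leading strand polymerase, had 14.7, 12.5 and 14.4 CPM in KO libraries and 6.66, 6.78 and 6.63 CPM in WT libraries, and rose by 1.05 ± 0.11 (SE). Top2a, which unlinks sister chromatids, rose by 1.01, and Top1, which relieves supercoils, fell by 0.72. Pcna, the sliding clamp, had 103, 104 and 113 CPM in KO libraries and 106, 108 and 113 CPM in WT libraries. Its groups overlapped, and it was not called (-0.03 ± 0.06, SE, edgeR adjusted p = 0.704). With library totals Pcna was called higher (0.17, edgeR adjusted p = 0.0292), below the 0.20 by which all genes shift.

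**Figure D3:**
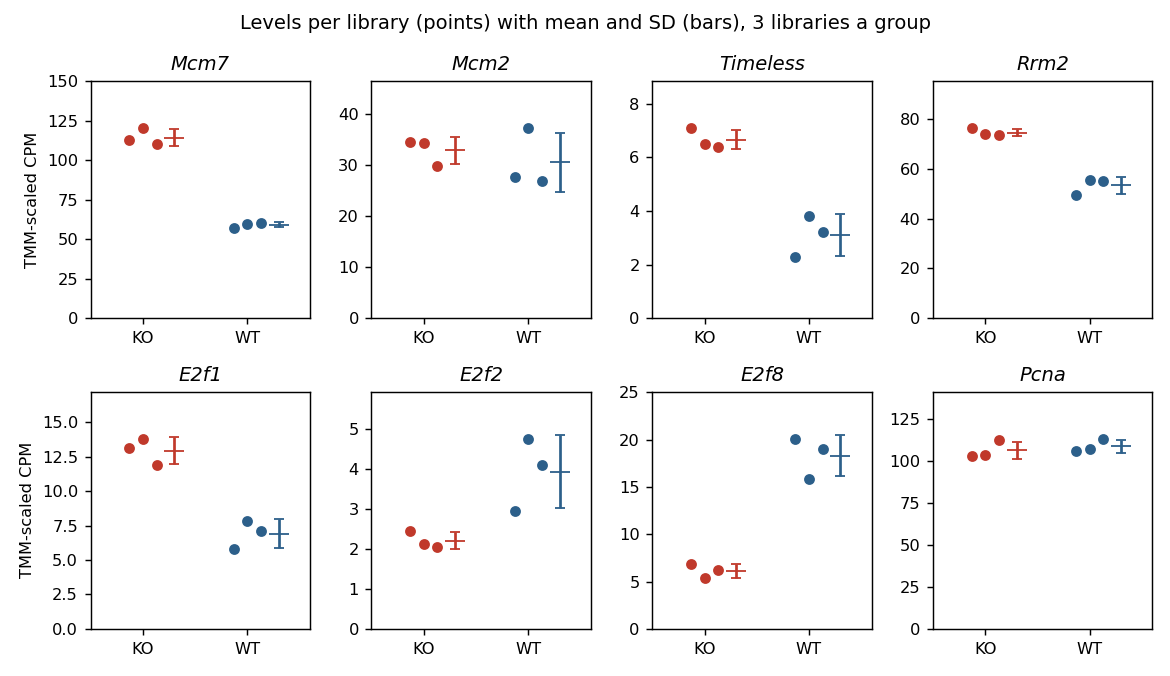
TMM-scaled CPM (y axis, from 0) of 8 genes in each library (points), KO left and WT right, with the mean and SD of the 3 libraries of each group beside them. Mcm7, Timeless, Rrm2 and E2f1 lie higher in KO, E2f2 and E2f8 lower, and the groups overlap in Mcm2 and Pcna.

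Nucleotide supply genes rose together, with all 4 higher and log2 fold changes from 0.39 to 0.53 (median 0.47). Rrm2 (ENSMUSG00000020649), the small subunit of ribonucleotide reductase, had 76.2, 73.9 and 73.6 CPM in KO libraries and 49.4, 55.7 and 55.0 CPM in WT libraries. The groups were clearly apart, with a rise of 0.48 ± 0.07 (SE, edgeR adjusted p = 1.62e-05). Rrm1, the large subunit, rose by 0.39 ± 0.08 (SE), to 40.4 ± 2.72 CPM in KO, against 30.9 ± 2.57 CPM in WT cells (SD, n = 3 each). Tyms, which makes thymidylate, rose by 0.45. The thymidine kinase gene Tk1 had 7.77, 5.06 and 6.39 CPM in KO libraries and 4.17, 4.34 and 4.84 CPM in WT libraries. It rose by 0.53 ± 0.15 (SE, edgeR adjusted p = 0.0102), and without KO replicate 4, its highest library, it was not called (0.36, edgeR adjusted p = 0.0799).

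Of 20 other genes of nucleotide metabolism 8 were higher (40%), 4 were lower (20%) and 8 missed the threshold (median 0.12). Over all genes tested 24.8% were higher, and the share that was lower here is near the 23.7% of all genes. Dck, the salvage kinase of deoxycytidine, rose by 0.91 ± 0.09 log2 units (SE), to 24.8 ± 0.436 CPM in KO, against 13.2 ± 1.12 CPM in WT cells (SD, n = 3 each). Shmt1, of the folate cycle, fell by 1.21 ± 0.14 and Impdh2, of guanine nucleotide synthesis, by 0.57 ± 0.06 (SE).

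Of the 3 genes of histone supply and chromatin assembly, 2 were higher. Chaf1b and Chaf1a encode subunits of the assembly factor that places histones behind the fork. Chaf1b rose by 0.69 ± 0.13 (SE), to 10.1 ± 0.656 CPM in KO, against 6.23 ± 0.912 CPM in WT cells (SD, n = 3 each), and Chaf1a rose by 0.41 ± 0.12 (SE). Exons of Ubxn6 on the other strand cover 52.5% of Chaf1a in M21. Slbp, whose product binds the stem-loop of histone mRNAs, had 51.3, 52.8 and 53.2 CPM in KO libraries and 57.0, 58.3 and 58.4 CPM in WT libraries. Its KO libraries all lay slightly below the WT libraries, and edgeR did not call it (-0.14 ± 0.06, SE, adjusted p = 0.0737), whereas DESeq2 did (-0.15, adjusted p = 0.0477). With library totals the sign turned (0.057). Of 13 further genes of this role 7 were higher (53.85%, against 24.8% of all genes tested), 0 lower (against 23.7%) and 6 not called. Among the higher genes were Rbbp4, the shared histone-binding subunit (0.47 ± 0.07), and Uhrf1 (0.49 ± 0.10), which brings DNA methylation to new strands. Casp8ap2 (0.46 ± 0.11, SE), which serves the processing of histone mRNAs, was also higher.

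The regulators of S phase entry held the only fall. E2f1 (ENSMUSG00000027490), an activator of replication genes, had 13.2, 13.8 and 11.9 CPM in KO libraries and 5.81, 7.83 and 7.12 CPM in WT libraries. It rose by 0.90 ± 0.12 (SE, edgeR adjusted p = 1.64e-05). E2f2 (ENSMUSG00000018983), a close relative, had 2.46, 2.13 and 2.06 CPM in KO libraries and 2.96, 4.76 and 4.11 CPM in WT libraries. It fell by 0.83 ± 0.18 (SE, edgeR adjusted p = 0.0013), so these paralogs moved in opposite directions without overlap of their groups. Dtl, which targets CDT1 for destruction during S phase, rose by 0.65 ± 0.13 (SE). Ccne1, a cyclin E gene, had 7.25, 7.29 and 7.42 CPM in KO libraries and 6.40, 5.95 and 5.34 CPM in WT libraries. Its rise of 0.31 ± 0.12 (SE, edgeR adjusted p = 0.0426) was close to the threshold, and the call was lost with DESeq2 size factors (0.30, edgeR adjusted p = 0.0509) and when genes of low count were kept (0.31, edgeR adjusted p = 0.0733). It was also lost without each of KO replicates 4, 5 and 6 and WT replicates 2 and 3, with the lowest value of 0.24 (edgeR adjusted p = 0.169) without WT replicate 3. The other cyclin E gene, Ccne2, had 5.37 ± 0.445 CPM in KO and 5.88 ± 0.878 CPM in WT cells (SD, n = 3 each) and was not called (-0.13 ± 0.14, SE), with its sign turned under library totals (0.064).

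Beyond the list, 17 of 26 genes of this role were higher (65.4%), 4 lower (15.4%) and 5 not called (median 0.43). Over all genes tested 24.8% were higher and 23.7% lower. E2f8, an atypical family member that represses E2F targets, had 6.84, 5.35 and 6.23 CPM in KO libraries and 20.0, 15.8 and 19.0 CPM in WT libraries. It fell by 1.58 ± 0.12 (SE, edgeR adjusted p = 2.73e-08), further than E2f2. Cks1b, a partner of cyclin-dependent kinases, rose by 1.15 ± 0.09, and the phosphatase gene Cdc25a, which activates them, by 0.56 ± 0.07 (SE). Ccna2, the cyclin of S phase, rose by 0.96 ± 0.16 (SE), while Cdk2, its kinase, was not called (0.16 ± 0.09, SE) except with library totals (0.36, edgeR adjusted p = 0.00527). Mki67, a marker of cycling cells, had 22.1, 19.4 and 20.9 CPM in KO libraries and 10.2, 10.1 and 13.4 CPM in WT libraries, and rose by 0.89 ± 0.12 (SE).

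Across the 109 other replication genes that were matched, of 111 listed, 53 were higher, 14 lower and 42 not called. With library totals 74 were higher and 8 lower. With TMM that is 48.6% higher and 12.8% lower, with a median of 0.29, between the 34 genes and all genes tested. In the remaining role, other licensing genes, 2 of 9 were higher and 2 lower (22.2% each), near the 24.8% and 23.7% of all genes. The genes that fell were Grwd1, a histone-binding protein, by 0.94 ± 0.07, and Mcmbp, which binds MCM proteins, by 0.48 ± 0.08 log2 units (SE).

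**Figure D4:**
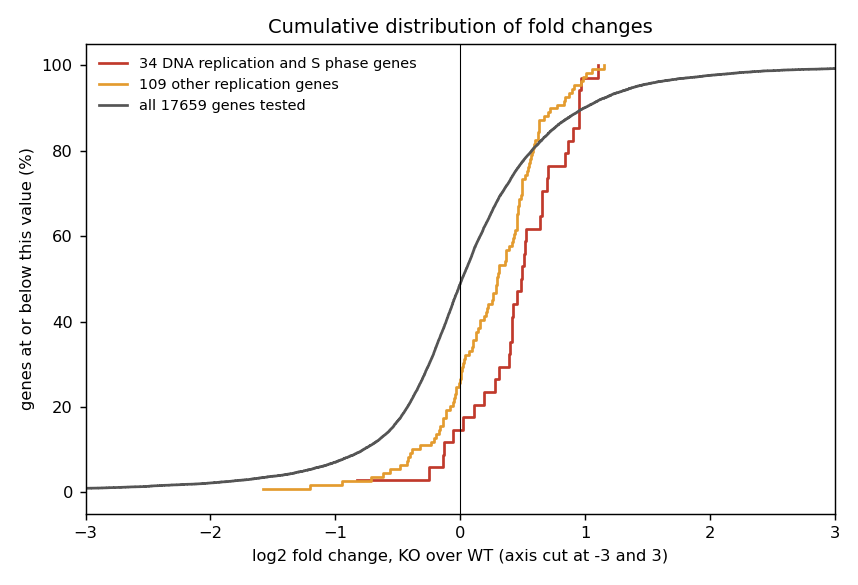
Cumulative share of genes (y axis, %) at or below each log2 fold change (KO over WT, x axis) for the 34 genes, the 109 other replication genes and all 17659 genes tested. The curve of the 34 genes is shifted right, with a median of 0.49 against 0.29 and 0.01, and ends at 1.10, while the curve of all genes runs on beyond it. Both gene lists were chosen with earlier results of these data known.

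Levels of the 34 genes also differed between libraries of 1 genotype. In WT replicate 1 only 3 of the 34 lay above the mean of the WT libraries, in WT replicate 2 29 did and in WT replicate 3 19 did. Their median deviations from the WT mean were -0.14, 0.17 and 0.02 log2 units. The KO libraries were closer to each other, with 27, 13 and 14 genes above their group mean in replicates 4, 5 and 6 and median deviations of 0.08, -0.02 and -0.03. Even so, the median of the 34 genes relative to the WT mean was 0.61, 0.46 and 0.41 in KO replicates 4, 5 and 6, above each WT library. Summed over the 34 genes, levels were 687, 662 and 644 CPM in KO libraries and 448, 527 and 486 CPM in WT libraries. By role, the ratio of mean summed levels (KO over WT) was 1.61 for polymerase and fork genes, 1.44 for licensing, 1.37 for nucleotide supply, 1.28 for control genes and 1.20 for firing genes. For histone and chromatin assembly genes it was 1.03, a sum in which Slbp is the most abundant. Abundant genes weigh on the other sums as well. Mcm7 held 114 of 317 CPM of the licensing sum in KO and 59.1 of 220 CPM in WT cells. Gins2 held 8.50 of 22.5 CPM of the firing sum in KO and 10.1 of 18.8 CPM in WT cells. By median log2 fold change, firing genes (0.49) stood above licensing genes (0.42), a difference that was not tested. These medians are the values of single genes, Gins3 (SE 0.17) and Mcm3 (SE 0.10), and lie closer together than either SE.

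**Figure D5:**
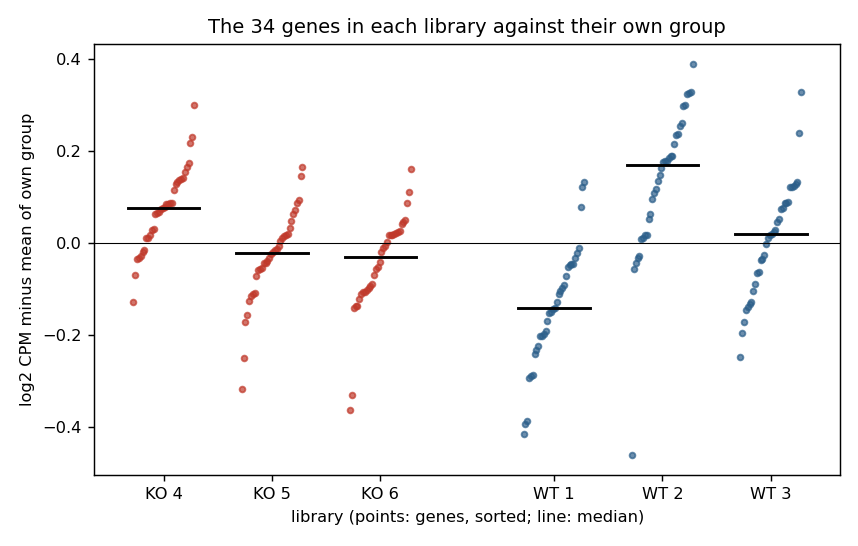
Deviation of each of the 34 genes from the mean of its own group (y axis, log2 CPM) in each library, KO left and WT right, with points sorted by value and the median as a line. Medians run from -0.03 to 0.08 in KO libraries and from -0.14 to 0.17 in WT libraries.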

How the data were processed

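The deposited table holds counts of sequencing reads for each gene in 6 libraries, not normalised. FastQC, STAR, HTSeq and DESeq2 with mm39 and GRCm39 are named per the submitters' processing notes, while tool versions, the gene annotation and whether counting used strand are not given in the sources used. Symbols were matched by identifier (52083 of 55416), and 0 columns belonged to no sample. Counts were tested with edgeR 4.0.16 in R 4.3.3 (quasi-likelihood, robust, TMM, filterByExpr with a minimum of 10 counts, genotype as the only factor), with Benjamini-Hochberg adjustment over all 17659 genes tested, and the code was tested on simulated data. Standard errors are the log2 fold change over the square root of F. CPM values use TMM-scaled totals, and 3 counts are 0.0349 CPM or less in every library, which covers counting error only.

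The 34 members and the gene lists were chosen with earlier results of these data known. Named other genes are, per role, the 3 with the smallest p, plus Pcna and partners in complexes of the members. Ctps1 and Lin54 had no matching symbol. Exon lengths, overlaps and X linkage are from GENCODE M21 (GRCm38), an older build, and promoters from RefSeq. Exon lengths merge the exons of all annotated transcripts of a gene. Alternatives were DESeq2 size factors, library totals, no filter, a minimum mean of 1 CPM, DESeq2 1.42.0, limma voom (limma 3.58.1) and leaving out each library.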

Additional observations from a re-analysis of the deposited data

How the results depend on the processing

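Of the 34 genes, 25 kept their call and direction under every alternative run. These are not the same genes as the 25 called higher. Gins3, Tk1 and Ccne1 lost their higher call in some runs, and Orc1 and Gins1 are counted because they stayed not called. Over all alternatives 386 values kept both call and direction, 11 lost a call, 4 gained one and 6 changed sign. Leaving out each library gave 22 to 25 genes higher, 1 lower and a median of 0.40 to 0.52, and 41 to 49 of the other replication genes higher, against 53. With library totals, which shift all genes by 0.20, the median of the 34 was 0.69, 2452 genes of all were lower, and of the other replication genes 74 were higher, against 53, and 8 were lower, against 14. DESeq2 called 3 of the 34 lower, against 1. Genes that were not called changed sign: with library totals Cdt1 (0.14), Slbp (0.057), Ccne2 (0.064), Orc3 (0.16) and Pcna (0.17), the last of these called. The shift of all genes by 0.20 is about the size of each of these moves. On leaving out 1 library, Orc6 ran from -0.017 to 0.070, Cdt1 from -0.13 to 0.033 and Orc3 from -0.13 to 0.040. These 3 stood within their standard error of 0 with all libraries. No paired analysis was possible because the replicate numbers of the groups do not overlap. Depth limits Gins1 most, with 61 counts in its lowest library, and 3 libraries a group limit every call near the threshold.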

Other observations

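Replication-dependent histone genes, whose transcripts are made in S phase and mostly lack a poly(A) tail, were mostly not called. Summed over 5 H1 genes they stood at 66.8, 70.0 and 75.5 CPM in KO libraries and 89.1, 74.4 and 73.4 CPM in WT libraries, and summed H2B genes at 61.0, 68.9 and 70.4 CPM in KO and 75.7, 69.9 and 68.9 CPM in WT libraries, so these groups overlapped. H2A sums averaged 11.9 ± 1.24 CPM in KO and 10.4 ± 0.754 CPM in WT cells, and H4 sums 21.4 ± 3.48 and 18.9 ± 1.63 CPM (SD, n = 3 each). H3 sums were 9.82, 11.3 and 12.5 CPM in KO libraries and 9.09, 6.08 and 7.13 CPM in WT libraries, without overlap. Of all genes tested, 28.7% had every KO library above every WT library. By edgeR's adjusted test, 1 of 5 H1, 1 of 13 H2A, 2 of 12 H2B, 3 of 10 H3 and 1 of 11 H4 genes tested were higher, and 1, 1, 1, 0 and 1 were lower. The shares over all genes tested were 24.8% higher and 23.7% lower. Copies of these genes are near-identical and can share reads, and whether the libraries were selected for poly(A) is not stated in the labels, so single values are uncertain.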
